A study of Mus musculus with 8 samples.

Results

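The 6 interferon-responsive genes Parp9, Parp10, Parp11, Parp12, Parp14 and Dtx3l were followed together with Parp1 in endothelial cells (ECs) of mouse breast tumours. The members were taken by name, so that the set held 7 of the 20408 genes found in any library. They were read in the 7159 of 8204 deposited cells with at least 1 UMI (a counted mRNA molecule) of Pecam1, which encodes the endothelial adhesion molecule CD31. Single-cell 3′ libraries had been made from live CD31+, CD45- sorted cells, 2 libraries in each of 4 groups and 1 mouse per library. The groups combined a tumour model with an injection into the tumour 3 h before sampling. Spontaneous tumours arose in female MMTV-PyMT mice, in which the MMTV promoter drives the PyMT oncogene in mammary epithelium, with treatment begun at 9 weeks of age. Implanted tumours grew from cells of such tumours placed with Matrigel in the mammary fat pad of female mice aged 8 to 9 weeks, so that ECs of the implanted tumours came from hosts without the transgene. The injection was PBS or 14 µg of cGAMP, a cyclic dinucleotide that activates the innate immune sensor STING. The strain is unsettled, being c57bl/6 in the labels and FVB in the methods.

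PARP enzymes transfer ADP-ribose from NAD+ to proteins and other targets. PARP1, the founding member, builds long ADP-ribose chains in the nucleus at DNA breaks. PARP10, PARP11, PARP12 and PARP14 attach single ADP-ribose units, and several of them act in antiviral defence and are raised by interferon. PARP9 carries macrodomains, which bind ADP-ribose, and forms a complex with DTX3L, a ubiquitin ligase of the Deltex family. Interferon signalling reaches such genes through receptors, Janus kinases and transcription factors, among them the interferon regulatory factors, which bind short promoter elements.

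Of these genes, 3 sit side by side in the mouse genome (GRCm38 coordinates). Parp14 lies at chr16:35832874-35871544 on the minus strand, Dtx3l at chr16:35926511-35939151 on the minus strand and Parp9 at chr16:35938470-35972605 on the plus strand. Dtx3l and Parp9 are head to head and their first 682 bases overlap. Parp10 lies at chr15:76231174-76243441 (minus strand), Parp11 at chr6:127446840-127494261 (plus strand), Parp12 at chr6:39086410-39118349 (minus strand) and Parp1 at chr1:180568924-180601254 (plus strand). The last 1401 bases of Parp10, where 3′ reads fall, overlap Plec on the same strand, so the split of reads between Parp10 and Plec is uncertain. The 3′ end of Parp9 is covered by the antisense gene Gm15564, and the sources used here do not state whether counting used the strand.

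Promoter windows from 250 bases before to 50 bases after a gene's start were found in the RefSeq table (GRCm38.p6) for Parp1, Parp11, Parp12 and Dtx3l. Both strands were searched for GAAA followed after any 2 bases by a further GAAA, the core of the interferon-stimulated response element, and for TTCNNNGAA, a short palindrome also found in interferon-responsive promoters. Of 32851 promoter windows, 3.44% held the first motif and 8.30% the second. Among the windows of these genes, only the upstream start of Parp11 (chr6:127446590-127446889, plus strand) held either, with a reverse-strand match of the first motif starting 44 bases before the start site (offset -44) and a match of the second at -37, the matches overlapping. The window is shown because it carries both matches, with the first motif in capitals. The Dtx3l window (chr16:35938978-35939277, minus strand) is shown because part of it lies where Dtx3l and Parp9 overlap. Neither motif was in it.
Parp11: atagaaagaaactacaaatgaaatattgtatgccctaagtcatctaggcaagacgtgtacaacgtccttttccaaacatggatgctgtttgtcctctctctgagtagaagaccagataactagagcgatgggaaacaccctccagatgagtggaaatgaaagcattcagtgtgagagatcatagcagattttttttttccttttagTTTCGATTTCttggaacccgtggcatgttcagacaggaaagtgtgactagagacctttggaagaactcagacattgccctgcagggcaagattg
Dtx3l: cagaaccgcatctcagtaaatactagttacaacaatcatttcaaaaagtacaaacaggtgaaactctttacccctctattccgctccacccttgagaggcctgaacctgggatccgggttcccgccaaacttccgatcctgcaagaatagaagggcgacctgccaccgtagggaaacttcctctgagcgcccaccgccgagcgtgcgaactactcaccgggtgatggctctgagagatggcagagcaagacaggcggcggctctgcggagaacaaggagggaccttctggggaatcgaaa

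The libraries held 601 to 1529 Pecam1+ cells and 7451522 to 16338968 UMIs in these cells. Replicate 1 of implanted cGAMP was shallow, with a median of 3049 UMIs per cell against 9523 to 14707.5 in the other 7 libraries. Across all cells, 7 barcodes of 8197 occurred in more than 1 library. The 8 endothelial markers summed to 5535 to 6660 CPM (the mean over cells of UMIs scaled to 1000000 per cell), and all were detected. Markers of other cells were also present. The 11 immune markers summed to 17.7 to 34.0 CPM after PBS, 38.8 to 47.1 CPM after cGAMP in spontaneous and 68.5 and 268.7 CPM in implanted tumours. The 9 mural markers summed to 216.1 to 603.1 CPM in spontaneous PBS and 672.7 to 906.1 CPM in spontaneous cGAMP, against 187.1 to 396.5 CPM in the implanted libraries. The 10 epithelial markers summed to 594.6 to 735.1 CPM in the spontaneous PBS and 605.5 to 727.5 CPM in the spontaneous cGAMP libraries, against a lower 279.4 to 385.0 CPM in implanted PBS and 167.2 and 1141 CPM in the 2 implanted cGAMP libraries. The 5 fibroblast markers summed to 12.1 to 68.8 CPM after PBS and 44.2 to 88.5 CPM after cGAMP. No marker was at 0 in all libraries.

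All 6 interferon-responsive genes rose after cGAMP in both models, and Parp1 was lower in both. The fold change (on the CPM + 1 scale) was 3.30 to 5.55 in spontaneous and 2.06 to 3.02 in implanted tumours. In the spontaneous model the 6 of 6 stood beside 5.09% of all 10424 tested genes called higher (12.7% in either direction), and the median log2 fold change was 2.09 against -0.10 over all genes. In the implanted model the 6 of 6 stood beside 8.60% (25.0% in either direction), with a median of 1.31 against -0.10. Calls are limma tests with a Benjamini-Hochberg adjusted p under 0.05. By size of log2 fold change, the 6 genes ranked between 114 and 208 from the top in the spontaneous and between 214 and 414 in the implanted model.

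**Figure D1:**
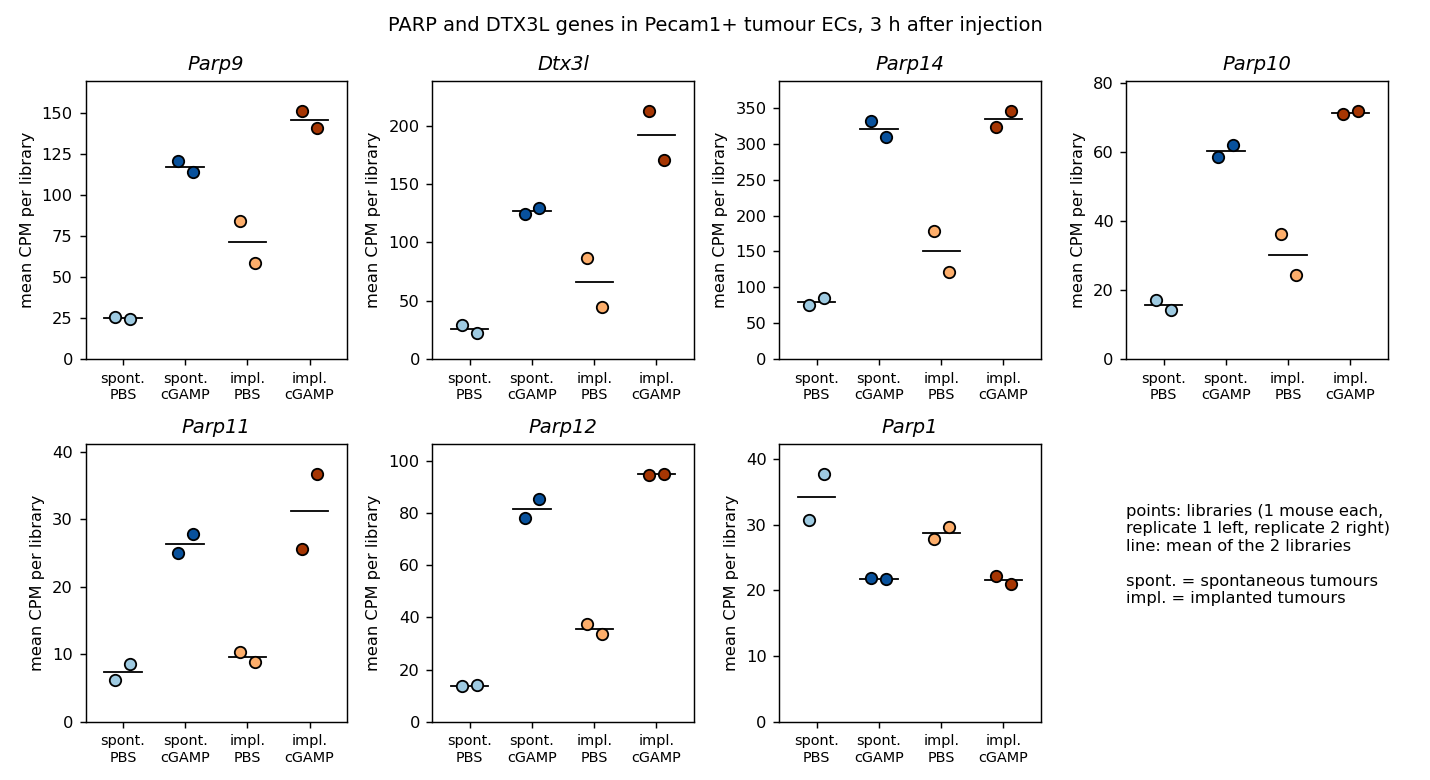
Mean CPM of each gene in Pecam1+ ECs (linear axes starting at 0, scaled per gene) in the 4 groups, each point a library and each line the mean of 2 libraries. For all genes but Parp1, both cGAMP libraries of a model lie above both of its PBS libraries, and the PBS libraries of the implanted model lie above those of the spontaneous model.

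The complex partners Parp9 and Dtx3l were read first. Parp9 measured 25.6 and 24.5 CPM in the spontaneous PBS libraries and 121 and 114 CPM after cGAMP. In the implanted tumours it measured 84.0 and 58.9 CPM after PBS and 151 and 141 CPM after cGAMP. Both cGAMP libraries lay above both PBS libraries in each model, and the implanted PBS libraries lay far above the spontaneous ones. Parp9 rose 4.54-fold in spontaneous tumours (95% confidence interval 3.62 to 5.68, limma adjusted p = 8.6e-06) and 2.06-fold in implanted tumours (1.65 to 2.58, adjusted p = 0.00096). Dtx3l measured 29.3 and 22.0 CPM in spontaneous PBS and 124 and 129 CPM in spontaneous cGAMP libraries. In implanted tumours it measured 86.9 and 45.0 CPM after PBS and 213 and 171 CPM after cGAMP. Again no cGAMP library overlapped a PBS library of its model, and the 2 implanted PBS libraries stood further from each other than the lower of them stood from the spontaneous ones. Dtx3l rose 4.84-fold (3.24 to 7.23, adjusted p = 0.00041) and 3.02-fold (2.02 to 4.51, adjusted p = 0.0022). The ratio of Dtx3l to Parp9 UMIs was 0.834 to 1.04 in the PBS libraries and 1.11 to 1.31 in the cGAMP libraries, but the ratio of their mean CPM overlapped between treatments (0.764 to 1.14 and 1.03 to 1.41).

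Parp14, a macrodomain-bearing mono-ADP-ribosyltransferase next to this pair in the genome, gave 615 to 4316 UMIs per library. It measured 74.9 and 85.4 CPM in spontaneous PBS and 332 and 310 CPM in spontaneous cGAMP libraries. In implanted tumours it measured 178 and 122 CPM after PBS and 323 and 346 CPM after cGAMP. The cGAMP libraries of the models overlapped, whereas the PBS libraries did not. Parp14 rose 3.97-fold in spontaneous tumours (3.13 to 5.04, limma adjusted p = 2.6e-05) and 2.26-fold in implanted tumours (1.78 to 2.87, adjusted p = 0.00066).

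Among the genes outside this locus, Parp12, a zinc-finger PARP, had the largest fold change of the 6 in spontaneous tumours. It measured 13.8 and 13.98 CPM in spontaneous PBS and 78.0 and 85.6 CPM in spontaneous cGAMP libraries. In implanted tumours it measured 37.7 and 33.6 CPM after PBS and 94.6 and 95.2 CPM after cGAMP. Replicates lay close together in every group, and no groups overlapped. Parp12 rose 5.55-fold (4.74 to 6.50, limma adjusted p = 5.8e-07) and 2.62-fold (2.24 to 3.07, adjusted p = 2.9e-05). Parp10, a mono-ADP-ribosyltransferase first found as a partner of MYC, measured 17.1 and 14.3 CPM in spontaneous PBS and 58.6 and 62.0 CPM in spontaneous cGAMP libraries. In implanted tumours it measured 36.1 and 24.4 CPM after PBS and 71.0 and 72.0 CPM after cGAMP. The 4 groups did not overlap. Parp10 rose 3.68-fold (2.84 to 4.77, adjusted p = 7.2e-05) and 2.36-fold (1.82 to 3.06, adjusted p = 0.00083). Plec, which begins inside the 3′ end of Parp10, had log2 fold changes of -0.26 (not called) and -0.38 (called lower). Its own 3′ end lies away from the overlap, at chr15:76170974. The Plec total therefore does not show how reads in the overlap were split.

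Parp11, another mono-ADP-ribosyltransferase, rested on the fewest molecules, with 44 to 423 UMIs per library. It measured 6.15 and 8.54 CPM in spontaneous PBS and 24.9 and 27.7 CPM in spontaneous cGAMP libraries. In implanted tumours it measured 10.4 and 8.87 CPM after PBS and 25.6 and 36.8 CPM after cGAMP. The treatments did not overlap in either model, and the cGAMP libraries of the models did. Parp11 rose 3.30-fold (2.40 to 4.55, limma adjusted p = 0.00059) and 2.99-fold (2.17 to 4.12, adjusted p = 0.00068).

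Parp1 had been set as an unchanged reference, and the data went against this. It measured 30.8 and 37.8 CPM in spontaneous PBS and 21.8 and 21.7 CPM in spontaneous cGAMP libraries. In implanted tumours it measured 27.9 and 29.7 CPM after PBS and 22.2 and 21.0 CPM after cGAMP, so that no cGAMP library reached a PBS library in either model. The log2 fold change was -0.63 ± 0.13 (SE, limma adjusted p = 0.013) in spontaneous and -0.40 ± 0.13 (adjusted p = 0.046) in implanted tumours, where 7.59% and 16.4% of all genes were called lower. Markers of proliferating cells fell beside it, the 10 of them summing to 132.4 to 520.3 CPM after PBS and 43.3 to 71.0 CPM after cGAMP. Without the cells classed as proliferative, Parp1 remained called lower in spontaneous tumours (-0.57, adjusted p = 0.028) and was not called in implanted tumours (-0.27, adjusted p = 0.20). The implanted call was lost in 13 of 21 alternatives, and the spontaneous call without the cells holding 2 markers of another type (adjusted p = 0.23) and without PBS replicate 2 (adjusted p = 0.089), cGAMP replicate 1 (0.081) or cGAMP replicate 2 (0.076).

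Markers of other cell types also moved with the treatment. Of the 6 tested immune markers, 0 were called higher in spontaneous and 4 in implanted tumours. Of the 9 mural markers 2 and 1, and of the 3 tested fibroblast markers 0 and 2, were called higher in the same order. Of the 8 tested epithelial markers 0 were called in either response, with median log2 fold changes of -0.11 and 1.01. Over all genes, 5.09% and 8.60% were called higher. Without the cells carrying at least 4 markers of another type, 6 of 6 genes were still called higher in both models, with log2 fold changes of 1.67 to 2.61 and 1.03 to 1.64. In such sums, a change in every cell and a change in the mix of cells cannot be told apart.

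**Figure D2:**
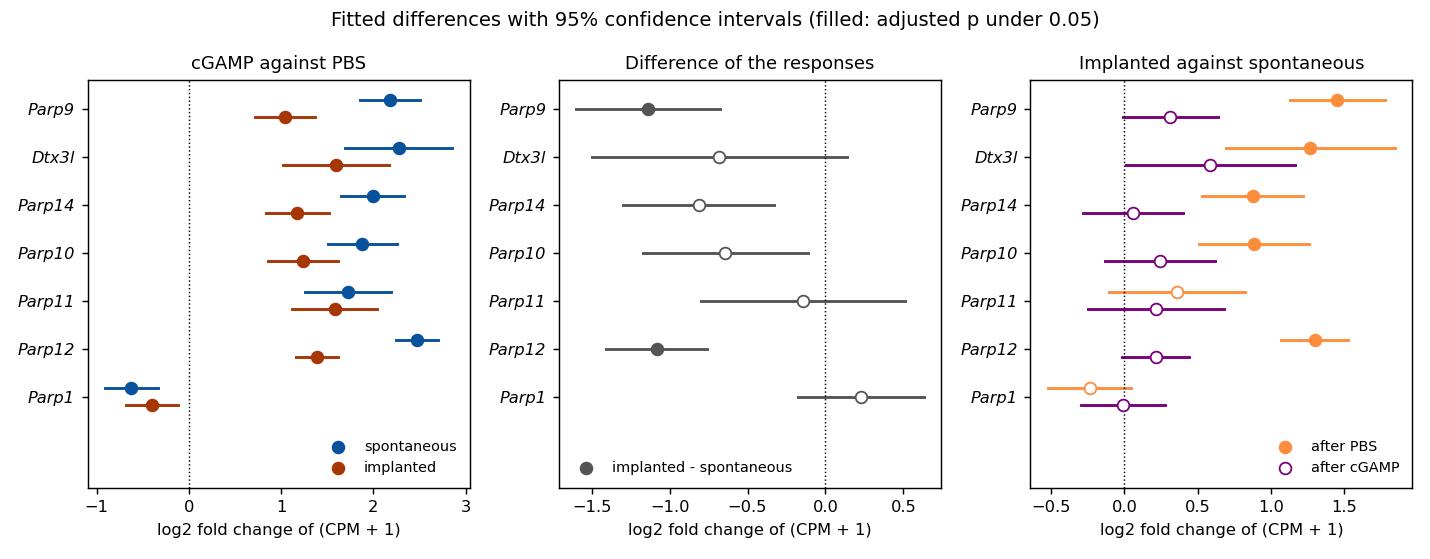
Fitted log2 fold changes of CPM + 1 (points) with 95% confidence intervals (lines) for the cGAMP responses, their difference and the contrast between models, filled where the adjusted p was under 0.05. The responses of the 6 genes lie between 1.04 and 2.47, those of Parp1 at -0.63 and -0.40, and only Parp9 and Parp12 are filled in the difference of the responses.

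Whether the models responded differently was tested as the difference of the responses, implanted minus spontaneous. Parp9 and Parp12 had the smaller response in implanted tumours, by -1.14 ± 0.20 (SE, limma adjusted p = 0.047) and -1.08 ± 0.14 (adjusted p = 0.021) on the log2 scale. These were 2 of 6 genes, where 0.460% of all tested genes were called lower and 0.662% in either direction. The count was 0 with all deposited cells, with no filter on low values and without the cells holding 2 markers of another type, which were 46.4% to 89.7% of a library's Pecam1+ cells. The differences of Parp14 (-0.81 ± 0.22, adjusted p = 0.15), Dtx3l (-0.68 ± 0.36, adjusted p = 0.45) and Parp10 (-0.64 ± 0.24, adjusted p = 0.29) were not called. For Parp11 the difference was -0.14 with an interval of -0.80 to 0.51, so that both no difference and a sizeable one remained within it. Parp1 differed by 0.23 (interval -0.18 to 0.63, not called). The Parp9 call was lost without any 1 library other than replicate 2 of implanted PBS (adjusted p of 0.052 to 0.25). The Parp12 call was lost without either spontaneous PBS, either spontaneous cGAMP or the first implanted PBS library (adjusted p of 0.054 to 0.16).

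Levels were next compared between the models within each treatment. After PBS, 5 of 6 genes were higher in implanted than in spontaneous tumours, where 3.39% of all genes were called higher, 4.44% lower and 7.83% in either direction. The log2 differences were 1.45 ± 0.14 for Parp9 (SE, limma adjusted p = 0.00059), 1.30 ± 0.10 for Parp12, 1.27 ± 0.26 for Dtx3l, 0.88 ± 0.17 for Parp10 and 0.87 ± 0.15 for Parp14. Parp11 differed by 0.36 (interval -0.10 to 0.82, adjusted p = 0.32), and with UMIs summed per library by 0.69 (adjusted p = 0.022), which made 6 of 6. After cGAMP, 0 of 6 genes were called, where 5.23% of all genes were called higher, 8.53% lower and 13.8% in either direction, and 1 had an unadjusted p under 0.05. That gene was Dtx3l, at 0.59 with an interval of 0.01 to 1.17 (adjusted p = 0.16). The other 5 differed by 0.06 to 0.31, and the widest interval among them reached 0.68 for Parp11. Parp1 differed by -0.24 (interval -0.52 to 0.05) after PBS and by -0.01 (-0.30 to 0.27) after cGAMP, with no call, but by -0.27 after cGAMP with UMIs summed per library (adjusted p = 0.048). Markers of other cells differed between the models too. After PBS, 1 of 9 mural markers was called lower and 1 of 3 fibroblast markers higher in implanted tumours, and 2 of 10 proliferative markers were higher. Of the 8 AQP7+ capillary markers 2 were lower, and of the 8 lymphatic markers 2 were higher. Of the 8 arterial markers 1 was higher, and of the 8 venous markers 1 was higher and 1 lower. After cGAMP, 4 mural, 4 AQP7+ capillary and 1 venous markers were lower. Those called higher were 4 lymphatic, 1 arterial, 1 tip, 1 fibroblast and 1 of 6 immune markers. None of the 8 tested epithelial markers was called, with a median of -1.14 after PBS and 0.10 after cGAMP. Their part in the contrasts between models was not tested. These contrasts share libraries with the responses and with their difference, so they are not separate evidence. The calls after PBS were lost without replicate 2 of spontaneous PBS for Parp10 (adjusted p = 0.12) and Dtx3l (0.15), without replicate 1 of implanted PBS for Parp10 (0.081) and Dtx3l (0.069), and without replicate 1 of spontaneous PBS for Parp14 (0.059).

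By group mean, each of the 6 genes had the same order of levels, namely spontaneous PBS, implanted PBS, spontaneous cGAMP and implanted cGAMP. The step from spontaneous to implanted PBS was called for 5 of them and the last step for 0. The middle step, from implanted PBS to spontaneous cGAMP, was not a contrast of the design, and its libraries did not overlap for any of the 6 genes. Parp1 ran the other way, from 34.3 ± 4.97 (mean ± SD, n = 2) and 28.8 ± 1.27 CPM after PBS to 21.8 ± 0.12 and 21.6 ± 0.86 CPM after cGAMP, in spontaneous and implanted tumours.

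Vessel types were then separated by marker genes. A cell was placed in a class when at least 3 markers of 1 list had a UMI and no other list had as many. This gave 1062 arterial, 1967 venous, 696 tip, 1235 AQP7+ capillary, 336 lymphatic and 267 proliferative cells, with 1596 left unclassed. Between 13.9% and 52.6% of a class lay near a boundary, the AQP7+ capillary class having the most. The markers themselves moved with cGAMP. In spontaneous and implanted tumours, 4 and 6 of 8 arterial markers were called lower. Of 8 tip markers 3 and 4 were higher and 1 and 2 lower, and of 8 lymphatic markers 0 and 4 were higher. Of 8 venous markers 1 and 1 were higher and 1 and 3 lower, and of 8 AQP7+ capillary markers 1 and 2 were lower. Over all genes, 5.09% and 8.60% were called higher and 7.59% and 16.4% lower. In replicate 1 of implanted cGAMP 35.0% of cells were unclassed, against 14.1% to 20.7% elsewhere. A class may therefore hold differently selected cells after each treatment. The proliferative class held 4 to 10 cells in each cGAMP library and was not compared, and the lymphatic class held 18 cells in replicate 2 of spontaneous cGAMP, under the minimum of 20, so only its implanted response was fitted.

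The 6 genes were called higher in most classes. In the venous class, 6 of 6 rose in spontaneous and 6 of 6 in implanted tumours (7.50% and 13.0% of all genes called in either direction), with median log2 fold changes of 2.45 and 1.07. In the tip class, 6 and 5 of 6 rose (5.67% and 8.52%), with medians of 2.45 and 1.42, and Parp9 in implanted tumours was at 0.70 ± 0.28 (SE, not called). In the AQP7+ capillary class, 5 and 6 of 6 rose (2.36% and 7.48%), with medians of 1.73 and 1.14. In the arterial class, 5 and 4 of 6 rose (2.94% and 4.10%), with medians of 1.89 and 1.47. In the lymphatic class of implanted tumours 0 of 6 were called by limma and 3 had an unadjusted p under 0.05, with a median of 1.25, but only 0.0192% of all genes were called there. Parp1 was called in none of these responses. The implanted counts rested on single libraries. Without replicate 2 of implanted PBS they fell to 1 in the venous, 0 in the tip and 2 in the arterial class, and without replicate 1 of implanted PBS to 1 in the AQP7+ capillary class.

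**Figure D3:**
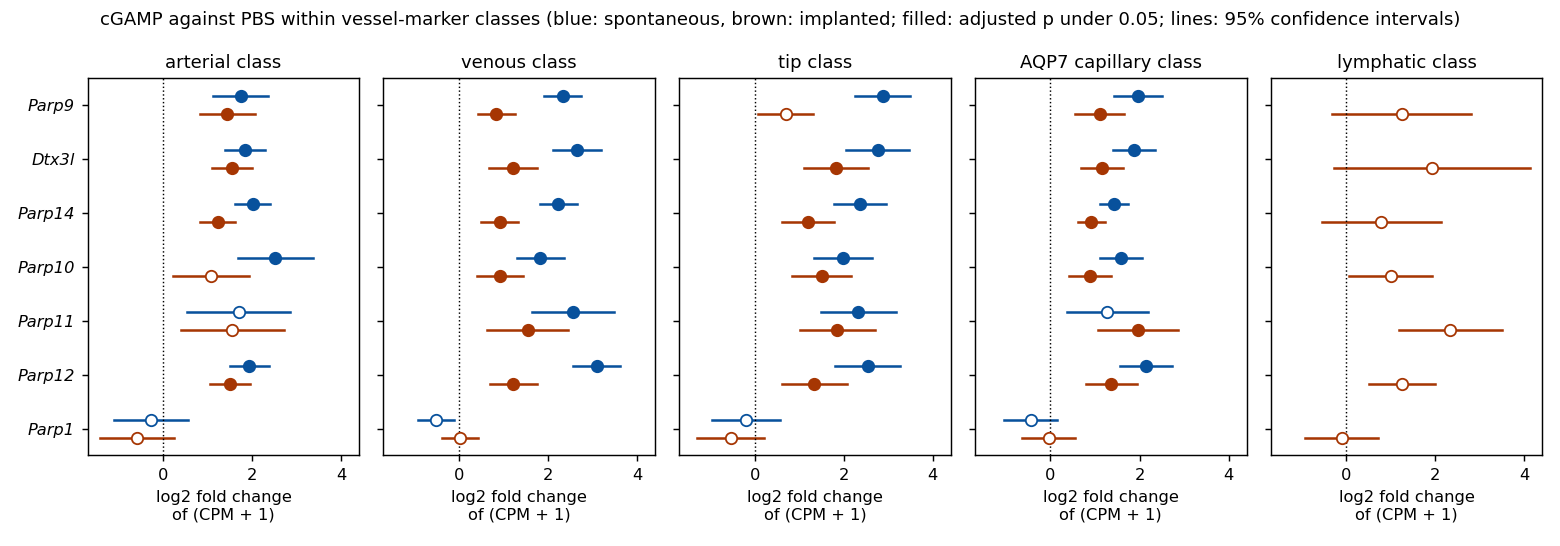
Log2 fold changes of CPM + 1 after cGAMP within 5 vessel-marker classes, with 95% confidence intervals, in spontaneous (blue) and implanted (brown) tumours, filled where the adjusted p was under 0.05. The points of the 6 genes lie to the right of 0 in every class.

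Whether a class responded differently from the other Pecam1+ cells was tested on differences within each library. These and the levels below were averaged over both models, except for the lymphatic response. In the arterial, venous, tip and AQP7+ capillary classes 0 of 6 genes were called by limma (0 to 0.288% of all genes called), with unadjusted p under 0.05 for 0, 0, 1 and 2 of them. In the lymphatic class of implanted tumours 0 of 6 were called and 0 had an unadjusted p under 0.05. Levels were also compared with the other cells. Of the 6 genes, 1 was called in the venous class after PBS, 1 in the tip class after cGAMP and 0 in the other 7 pairs of class and treatment, where up to 3 had an unadjusted p under 0.05. The shares of all genes called in those 7 pairs were 22.1% and 21.3% (arterial after PBS and cGAMP), 11.7% (venous after cGAMP), 18.6% (tip after PBS), 17.3% (lymphatic after PBS), and 6.72% and 6.90% (AQP7+ capillary after PBS and cGAMP). Both counts of 1 of 6 were near the shares of all genes called there, 23.0% in the venous and 12.5% in the tip class. Parp12 was lower in venous cells after PBS, by -0.55 ± 0.15 (SE, limma adjusted p = 0.044, 23.0% of all genes called). In that class it measured 10.3 and 5.39 CPM in spontaneous PBS and 37.7 and 30.2 CPM in implanted PBS libraries, with the spontaneous libraries far below the implanted ones. Over all Pecam1+ cells, venous cells included, it measured 13.8 and 13.98 CPM in spontaneous PBS and 37.7 and 33.6 CPM in implanted PBS libraries. The difference was not tested in each model apart. Dtx3l was higher in tip cells after cGAMP, by 0.48 ± 0.10 (adjusted p = 0.027, 12.5% called). There it measured 147 and 168 CPM in spontaneous and 334 and 223 CPM in implanted tumours. Parp1 was lower in arterial cells after PBS (-0.63 ± 0.15, limma adjusted p = 0.027, 22.1% called) and higher in venous cells after cGAMP (0.42 ± 0.08, adjusted p = 0.021, 11.7% called). The Parp12 call was lost without any 1 library other than replicate 1 of spontaneous PBS (adjusted p of 0.062 to 0.20). The Dtx3l call was lost without any cGAMP or implanted PBS library (adjusted p of 0.058 to 0.15). The Parp1 call in arterial cells was lost without replicate 1 of spontaneous PBS or either implanted PBS library (adjusted p of 0.11 to 0.16), and that in venous cells without either spontaneous cGAMP library or replicate 2 of implanted cGAMP (adjusted p of 0.076 to 0.11).

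The lymphatic class is given by values of Parp11 and Parp12, since the spontaneous response could not be fitted. These genes had the lowest unadjusted p in the implanted fit of the class, so their values do not stand for the other members. Parp11 measured 8.61 and 7.77 CPM in spontaneous PBS and 48.1 CPM in both spontaneous cGAMP libraries, and 11.9 and 6.93 CPM in implanted PBS against 45.1 and 55.6 CPM in implanted cGAMP libraries. Parp12 measured 19.98 and 13.6 CPM against 76.6 and 75.6 CPM in spontaneous, and 40.1 and 37.7 CPM against 90.1 and 98.4 CPM in implanted tumours. For both genes every cGAMP library lay above every PBS library of its model, on 18 to 119 cells per library. In the implanted fit the log2 intervals included 0 for Parp9 (-0.31 to 2.80), Parp14 (-0.55 to 2.13) and Dtx3l (-0.26 to 4.13). That of Parp10 was 0.06 to 1.94 (not called).

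The remaining PARP family was read next. Of 10 other family genes, all tested, 3 rose in spontaneous and 1 in implanted tumours, where 5.09% and 8.60% of all genes were called higher, with median log2 fold changes of 0.10 in both. The implanted count was near that background. Zc3hav1, which encodes the zinc-finger antiviral protein, rose by 1.02 ± 0.10 (SE, limma adjusted p = 0.0001) and 0.81 ± 0.10 (adjusted p = 0.00039). Its levels were 51.8 ± 3.38 and 106.3 ± 2.42 CPM (mean ± SD, n = 2) in spontaneous PBS and cGAMP libraries. Parp3, a DNA repair PARP, rose by 0.77 ± 0.18 (adjusted p = 0.026) and Parp8 by 0.62 ± 0.17 (adjusted p = 0.047) in spontaneous tumours. Between the models, Tiparp, a target of the aryl hydrocarbon receptor, was higher in implanted tumours by 0.48 after PBS and by 0.47 after cGAMP (limma adjusted p of 0.037 and 0.028). Tnks2, a tankyrase, was lower there after PBS (-0.38, adjusted p = 0.038) and Parp6 after cGAMP (-0.82, adjusted p = 0.036). The Parp3 call was lost in 6 of 21 alternatives and the Parp8 call in 14. Both calls were lost when any 1 of the 4 spontaneous libraries was left out, with values of 0.62 to 0.92 and 0.47 to 0.76. The calls of Tiparp and Tnks2 after PBS were lost in 10 alternatives each, and those of Tiparp and Parp6 after cGAMP in 9 and 8.

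Genes that act around ADP-ribosylation were counted in the same way. Of the Deltex relatives of Dtx3l, 3 of 4 were tested and 0 were called in either response by limma (0 had an unadjusted p under 0.05), where 12.7% and 25.0% of all genes were called in either direction, with medians of 0.17 and 0.12. After cGAMP, Dtx1 was higher (1.49 ± 0.41 SE, adjusted p = 0.042) and Dtx3 lower (-0.51 ± 0.13, adjusted p = 0.038) in implanted tumours, and Dtx2 was at -0.17 (not called). These 2 calls stood beside 13.8% of all genes called in either direction. They were lost in 10 and 11 of 21 alternatives, and Dtx3 changed sign in 1. Dtx1 differed by a similar 1.52 between the models after PBS (limma adjusted p = 0.054, not called). Of 8 genes for the removal of ADP-ribose, 6 were tested. Macrod2, a hydrolase of protein-linked ADP-ribose, fell by 0.997 on the log2 scale in implanted tumours (SE 0.20, adjusted p = 0.0061), and 0 of the 6 were called in spontaneous tumours (1 had an unadjusted p under 0.05). These counts of 1 and 0 stood beside 16.4% and 7.59% of all genes called lower. The other large values in this list, for Nudt16 (-0.98, difference of the responses) and Adprhl2 (-0.31, implanted response), were not called. Of 8 genes of NAD supply, 5 were tested and 1 was called higher in each response, beside 5.09% and 8.60% of all genes. Between the models 1 was called higher after PBS, and 1 higher and 1 lower after cGAMP. There 7.83% and 13.8% of all genes were called in either direction. Nampt, the rate-limiting enzyme of NAD salvage, rose by 1.32 ± 0.14 (adjusted p = 0.00021) and 1.28 ± 0.14 (adjusted p = 0.00021), and was higher in implanted tumours by 0.66 after PBS and by 0.62 after cGAMP (adjusted p of 0.020 and 0.018). The latter calls were lost in 6 and 4 of 21 alternatives (adjusted p of up to 0.34 and 0.13), and without replicate 1 of implanted PBS the first value was 0.43. Nmrk1, a nicotinamide riboside kinase, was lower in implanted tumours after cGAMP (-0.98 ± 0.21, limma adjusted p = 0.017). It measured only 4.10 and 4.40 CPM there, against 9.77 and 8.89 CPM in spontaneous cGAMP libraries. Its call was lost in 2 of the 8 fits with 1 library left out. Nmnat1 differed between the responses by -0.45 (not called).

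Interferon signalling genes formed the last list. Of 8 tested genes, Irf1, Irf7, Irf9 and Stat2 rose in both models, with medians of the list of 0.66 and 0.43. These 4 calls stood beside 5.09% and 8.60% of all genes called higher. Stat2 rose by 2.26 ± 0.12 (SE, limma adjusted p = 2.0e-06) and 1.62 ± 0.12 (adjusted p = 3.0e-05). Irf9 rose by 1.72 and 0.82, Irf1 by 0.97 and 0.55 and Irf7 by 5.85 and 4.12. The implanted Irf1 call was lost in 5 of 21 alternatives (adjusted p of up to 0.15), with a value of 0.31 without replicate 2 of implanted PBS. The same 4 genes were higher in implanted tumours after PBS, by 0.67 to 1.72, where 3.39% of all genes were called higher. Ifnar1, a subunit of the type I interferon receptor, fell after cGAMP in implanted tumours (-0.53 ± 0.13, adjusted p = 0.017), a call lost in 4 of 21 alternatives. The responses differed between models for Irf7 (-1.72, adjusted p = 0.029) and Irf9 (-0.91, adjusted p = 0.024), where 0.460% of all genes were called lower. Both responses were smaller in implanted tumours, and these 2 calls were lost in 5 and 7 of 20 alternatives.

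**Figure D4:**
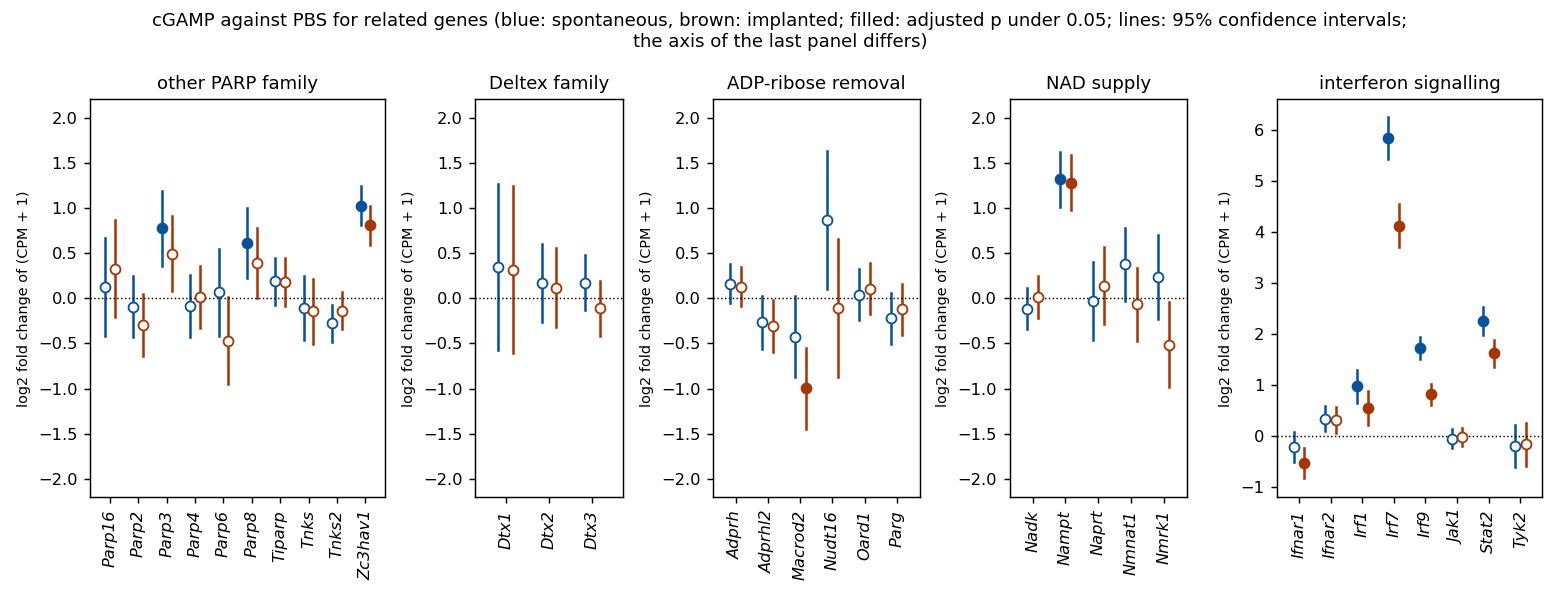
Log2 fold changes of CPM + 1 after cGAMP with 95% confidence intervals for the tested genes of 5 related lists in spontaneous (blue) and implanted (brown) tumours, filled where the adjusted p was under 0.05. Zc3hav1 and Nampt are filled in both models, and 4 interferon signalling genes rise in both, Irf7 to 5.85 and 4.12.

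Genome neighbours were read to see whether nearby genes moved with the members. Of the 16 nearest protein-coding genes at the 4 loci, 10 were tested and 0 were called higher in either response by limma (2 and 4 had an unadjusted p under 0.05 in either direction), where 5.09% and 8.60% of all genes were called higher. In implanted tumours 2 of the 10, Plec (-0.38) and Dirc2 (-0.91, beyond Parp14), were called lower, beside 16.4% of all genes. These shares are near the background. Kpna1, which begins 6145 bases beyond Parp9, was at -0.26 (interval -0.57 to 0.05) and 0.03 (-0.27 to 0.34). Kdm7a, 18274 bases from Parp12, was at 0.19 (-0.06 to 0.44) and 0.31 (0.06 to 0.56, not called). Grina, 3323 bases from Parp10, was at 0.14 and 0.28 (neither called) and was higher in implanted tumours after cGAMP (0.42, adjusted p = 0.021).

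**Figure D5:**
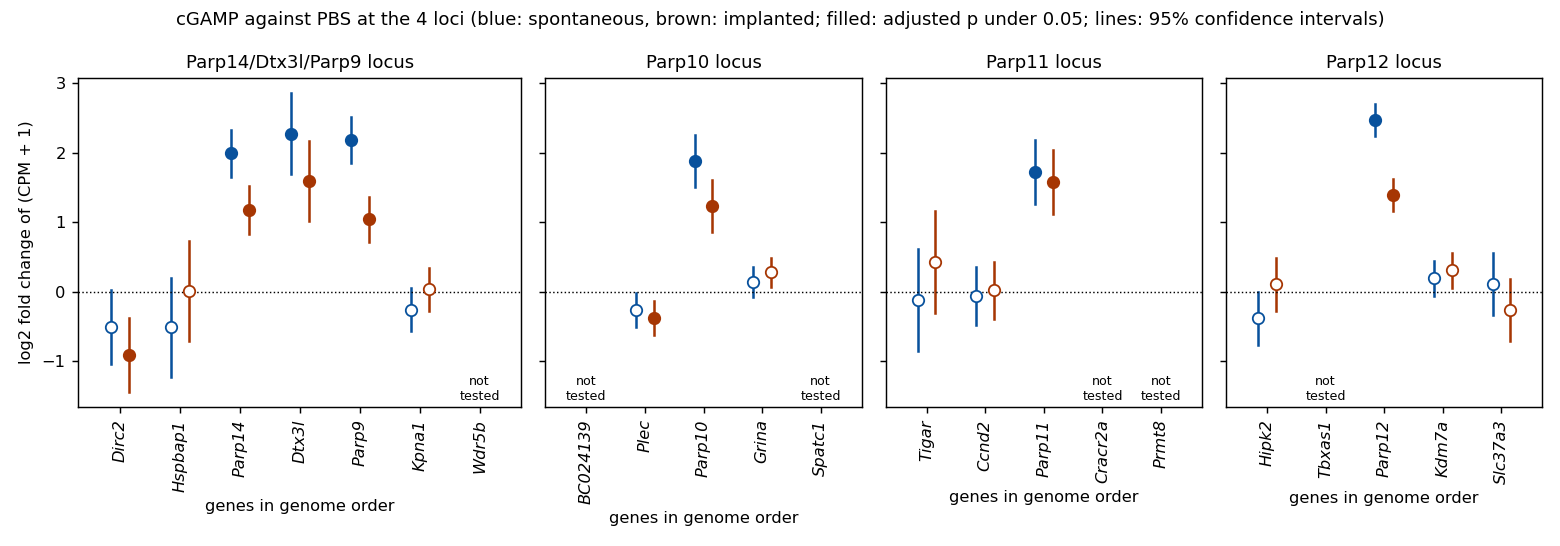
Log2 fold changes of CPM + 1 after cGAMP with 95% confidence intervals for the members and their nearest protein-coding genes, in genome order at 4 loci, in spontaneous (blue) and implanted (brown) tumours. The members stand at 1.04 to 2.47, whereas no tested neighbour is filled above 0.

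The genes whose pattern was most like that of each member were ranked by Pearson's r of log2(CPM + 1) over the 8 libraries, which fall into 4 groups, so that r is a description of shared group levels. Among the 8374 genes whose mean reached 10 CPM, Psmb8 (r = 0.999), an immunoproteasome subunit, Gbp3 and Gbp7 were most like Parp9. Il18bp (0.995), Apol9b and Tapbp were most like Parp10, and Slfn3 (0.998), Mitd1 and Phf11d were most like Parp11. H2-K1 (0.997), H2-Q6 and H2-D1, which are MHC class I genes, were most like Parp12. Gm8909 (0.995), Rnf213 and Ifit3 were most like Parp14, and Gsdmd (0.992), Samhd1 and Parp10 (0.990) were most like Dtx3l. Between 122 and 158 genes exceeded an r of 0.95 with each member, so these names stand for a large group of near ties.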

How the data were processed

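Single-cell RNA was measured in 8 libraries of sorted tumour ECs, 2 mice in each of 4 groups taken from the labels. The authors aligned reads to mm10 with Cell Ranger 3.0.0, used Seurat 3.1.1 (versions per the submitters' processing notes), removed cells under 500 genes or over 10% mitochondrial UMIs and genes in fewer than 3 cells, and deposited natural log values, ln(1 + 10000 × UMIs / total) per cell. How the deposited cells were chosen is not settled, since the study lists other cell numbers. UMIs were recovered from these values, 100% whole within 0.01, and 0 value columns were left unused.

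Levels were the mean CPM over Pecam1+ cells of a library, so depth (7451522 to 16338968 UMIs) limits precision. The log2 of CPM + 1 was tested with limma 3.58.1 (R 4.3.3, eBayes with trend, all 8 libraries, group as the only term) over 10424 genes with at least 5 CPM in 2 libraries, with Benjamini-Hochberg adjustment at 0.05. Fold changes on this scale understate the change of low genes. Each group held 2 mice with 1 library each. The p-values rest on the spread between replicate libraries, pooled over the 4 groups and moderated across genes. Variation between mice and between libraries cannot be told apart. Vessel classes needed 20 cells per library, and no doublet caller was run. Vessel classes here were rebuilt from markers. Gene positions came from GENCODE M21 and promoters from RefSeq (4 of 7 genes matched). The fits were tested on simulated data.

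Named were the 7 members, the genes of 5 lists (each called gene and the 3 with the largest change), the 3 genes most like each member and the 2 nearest genes on each side. A gene of the interferon list is not reported here, and the counts leave it out. The members and lists were chosen with earlier results of these data known. Alternatives changed the pseudocount, filter, scaling, cells, model terms and libraries. Replicate numbers were not used to pair the libraries in the main fit.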

Additional observations from a re-analysis of the deposited data

Results flagged for a closer look

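The difference between the cGAMP responses of the models, tested as an interaction with limma across all genes, was past the threshold for 4 of the genes described here. It was -1.14 on the log2 scale for Parp9 and -1.08 for Parp12, each a smaller rise in implanted than in spontaneous tumours. It was -1.72 for Irf7 and -0.91 for Irf9, with the same direction. Over all genes, 0.662% were called in this contrast. Implanted PBS libraries already held more of all 4 transcripts than spontaneous ones, with log2 differences of 1.45 (Parp9), 1.30 (Parp12), 1.72 (Irf7) and 0.67 (Irf9), and these values share the same libraries as the interaction.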

How the results depend on the processing

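All 6 genes other than Parp1 were called higher in both responses under each of the 21 alternatives, with log2 fold changes of 1.35 to 2.98 in spontaneous and 0.79 to 2.06 in implanted tumours. Parp1 kept its direction in both responses, at -0.77 to -0.48 and -0.62 to -0.20, but its call was lost in 4 and 13 of the 21. The cause of the changes below was not tested, beyond what fewer cells, genes or libraries bring by construction.

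The difference of the responses was the least stable. Its count among the 6 was 1 with a pseudocount of 5 CPM and 1 in cells of at least 2000 UMIs, and 0 with no filter on low values, 0 with all deposited cells and 0 without cells holding 2 markers of another type. It ranged from 0 to 3 with 1 library left out. After PBS, the count between models was 2 with no filter, 6 with UMIs summed per library and 3 to 5 with 1 library left out. After cGAMP it was 1 when only the groups compared entered the fit and 0 to 1 with 1 library left out. The difference of Parp11 turned to 0.14 without cells holding 2 markers of another type, 0.07 without replicate 1 of spontaneous PBS and 0.11 without replicate 1 of implanted cGAMP (-0.39 to 0.11 with any 1 library left out), none of them called. After cGAMP, the contrast between models, not called, turned for Parp1 to 0.068 with median-of-ratios scaling, 0.24 without cells of 2 and 0.020 without cells of 4 markers of another type, and 0.028 without replicate 2 of implanted cGAMP, with -0.050 to 0.028 over the libraries left out in turn, and was called, at -0.27, with UMIs summed per library. It turned for Parp11 to -0.034 without that replicate (-0.034 to 0.47 with any 1 left out), and without cells of 2 markers of another type for Parp12 to -0.044 and for Dtx3, called in the main comparison, to 0.19.

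Counts over all genes were 1322 in the spontaneous and 2609 in the implanted response, 69 in their difference, and 816 and 1434 between models after PBS and cGAMP. With no filter they were 812 in the spontaneous response, 0 in the difference, 327 after PBS and 784 after cGAMP. With UMIs summed per library they were 2839, 112 in the difference and 1317 after PBS. Without cells of 2 markers of another type they were 395, 606, 13, 178 and 217, in the order above. The difference gave 43 with all deposited cells and 108 without cells of 4 markers of another type, an alternative chosen after seeing the data. With 1 library left out the ranges were 446 to 1826, 1287 to 2490, 2 to 176, 219 to 1242 and 156 to 1467. Median-of-ratios scaling moved the median of all genes from -0.10 in both responses to values nearer 0, and the share of calls that were higher from 40.2% to 66.2%, 34.3% to 51.4%, 43.3% to 67.8% and 38.0% to 58.4% in the responses and the contrasts after PBS and cGAMP.

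Among the classes compared with other cells, the count of the 6 was 1 for arterial cells after PBS in cells of at least 2000 UMIs, 1 for tip cells after PBS with summed UMIs, and 2 for tip cells after cGAMP in either setting. With 1 library left out it was 0 to 1 (arterial after PBS, arterial after cGAMP, tip after PBS, lymphatic after PBS) and 0 to 2 (venous after PBS, tip after cGAMP). The responses within a class gave 1 to 6 (venous and AQP7+ capillary), 0 to 5 (tip) and 2 to 4 (arterial) in implanted tumours with 1 library left out. The differences between replicates 1 and 2, taken over all tested genes, correlated by -0.216 to 0.125 across groups. A correlation over all genes cannot decide whether libraries were paired, since a shared batch may touch only some genes. With the replicate block the counts were 1230, 2524, 58, 741 and 1362, and among the members' responses it ended 1 call, that of Parp1 in implanted tumours (limma adjusted p = 0.056). It also ended the calls of Tnks2 (0.053) and Tiparp (0.052) between models after PBS. With a library left out its group holds 1 mouse, which is then assumed to vary like the other groups. Depth limits Parp11 most, at 44 to 423 UMIs per library.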
